A study of Mus musculus with 24 samples.

Results

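The transcripts described here encode 10 proteins of pexophagy and autophagy, and all 10 were measured and tested in the kidneys of mice with and without a deletion of Pex5 in the renal tubule. They were chosen by symbol: the cargo receptors Nbr1, Sqstm1 and Optn, the ubiquitin-like proteins Map1lc3a, Map1lc3b and Gabarapl1, the conjugation factors Atg5 and Atg7, the deubiquitinase Usp30 and the transcription factor Tfeb. They were 10 of the 16092 genes that passed the filter on low values. RNA of whole kidneys was sequenced from 24 C57BL/6J mice, 6 in each of 4 groups. Male and female cKO mice (cKOm and cKOf) carried Pex5lox/lox, Pax8-rtTA and LC1, in which the Pax8 promoter limits a doxycycline-dependent activator, and through it the Cre recombinase of LC1, to cells of the renal tubule. Their littermate controls (Ctrlm and Ctrlf) were Pex5lox/lox mice. Doxycycline was given to all 4 groups for 2 weeks, starting at 8 weeks of age, and the kidneys were collected 4 weeks after it ended. The labels give ZT9 as the time of tissue collection and, elsewhere, ZT3 as that of the experiments. The question was whether loss of the peroxisomal import receptor PEX5 went with a change in the transcripts of the machinery that removes peroxisomes.

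Pexophagy is the removal of peroxisomes by autophagy. Ubiquitin on the peroxisomal membrane, PEX5 being one of its carriers, is bound by cargo receptors that also bind ATG8 proteins on the growing phagophore, and the peroxisome is then enclosed and passed to the lysosome. NBR1 is the receptor most closely tied to pexophagy in mammalian cells, and SQSTM1 (p62) works with it. ATG5 and ATG7 attach ATG8 proteins to lipid, USP30 takes ubiquitin off peroxisomes and mitochondria, and TFEB drives transcription of autophagy and lysosome genes. Autophagy runs at a high basal rate in the proximal tubule, a segment rich in peroxisomes. Receptors and ATG8 proteins are themselves consumed by autophagy, so transcript levels give neither protein levels nor flux.

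Of the 10 transcripts, 1 was called different between genotypes in males, where 9.05% of all tested genes were called. This was Sqstm1, lower in cKOm than in Ctrlm mice with a log2 fold change of -0.29. With a score of hepatocyte markers or the share of reads outside exons as a covariate, the Sqstm1 call was lost (edgeR adjusted p = 0.0995 and 0.224). Over all tested genes, male calls numbered 1456, and 893 and 1080 with these covariates. No transcript passed the threshold in females, where 0.851% of all tested genes were called. Nbr1, Map1lc3b and Gabarapl1 lay within 0.03 of no change on the log2 scale in both sexes. Atg7 and Usp30 were higher in cKOm mice only before the p values were adjusted for all tests.

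The kidneys held 19376152 to 28470831 reads counted on genes (median 21592602). Levels are given as CPM, counts per 1e6 counts after scaling the libraries to each other. The floor of 3 counts was between 0.105 and 0.155 CPM (it covers counting error only), and the lowest member count in any kidney was 188. Pex5 itself was lower in cKOm than in Ctrlm mice (log2 fold change -0.31, SE 0.08, edgeR adjusted p = 0.0219), a call that was lost without Ctrlm replicate 2 (adjusted p = 0.0657) or cKOm replicate 4 (adjusted p = 0.0508). With a score of hepatocyte markers or the share of reads outside exons as a covariate it was lost as well (edgeR adjusted p = 0.109 and 0.0853). In females the log2 fold change of Pex5 was -0.21 (SE 0.08, edgeR adjusted p = 0.177). For cKOf mice the paper reports leftover full-length Pex5 mRNA and PEX5 protein, and it proposes incomplete excision. It also leaves room for functions of peroxisomes that differ by sex. When male and female genotype effects are compared here, sex and the extent of the deletion cannot be told apart. The Pex5 count sums every annotated exon and every cell type of the kidney. In kidneys of males, the summed level of 7 proximal tubule markers was 8641 to 9881 CPM in Ctrlm and 6581 to 7380 in cKOm mice, and 4 of the 7 fell. In whole kidneys, fewer cells of a type and less RNA per cell cannot be told apart.

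Promoter windows are shown for the member that differed between genotypes and for a member that holds the core of the motif bound by TFEB. They run from 250 bases before to 50 bases after the RefSeq transcript start, in GRCm38.p6, with matches to the named motifs on either strand in capitals. The Sqstm1 window lies on the minus strand at chr11:50210771-50211070. Its capitals mark GGGCGG (the GC box), also as its reverse complement, and TATAAA (the sequence of the TATA box). This TATAAA begins at offset -1 from the RefSeq start, and whether it acts as a TATA box was not tested. The Atg5 window lies on the plus strand at chr10:44268089-44268388, and its capitals mark CACGTG, the core of the CLEAR motif, and GGGCGG.
Sqstm1: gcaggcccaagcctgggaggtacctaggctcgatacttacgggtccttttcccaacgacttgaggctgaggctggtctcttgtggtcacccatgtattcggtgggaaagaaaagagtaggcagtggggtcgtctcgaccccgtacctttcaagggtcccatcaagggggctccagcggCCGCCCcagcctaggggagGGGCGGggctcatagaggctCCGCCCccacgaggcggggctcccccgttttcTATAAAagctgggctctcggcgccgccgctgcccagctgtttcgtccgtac
Atg5: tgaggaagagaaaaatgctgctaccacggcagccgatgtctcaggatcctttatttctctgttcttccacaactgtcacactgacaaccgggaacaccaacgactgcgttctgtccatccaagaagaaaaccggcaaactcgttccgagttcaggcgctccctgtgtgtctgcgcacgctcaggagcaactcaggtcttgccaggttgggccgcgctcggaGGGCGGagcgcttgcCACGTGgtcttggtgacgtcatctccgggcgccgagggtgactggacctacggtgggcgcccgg
RefSeq windows were at hand for 9 of the 10 members, 12 windows in all, and not for Map1lc3a. CACGTG was found in the windows of 2 members, Atg5 and Atg7, and in 7.15% of all 32851 windows of the same length. The Atg7 window at chr6:114670846-114671145 lies inside the annotated gene. TGACNNNGC, the core of the antioxidant response element, was found in that of Map1lc3b and in 12.4% of all windows. TATAAA was found in that of Sqstm1 and in 13.6% of all windows, and GGGCGG in those of 8 members and in 35.7% of all windows. Neither CACGTG nor TGACNNNGC is in these letters of the Sqstm1 window.

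Levels of different genes were compared per kb of exon, with the length taken over all annotated exons of a gene. Gabarapl1 was the highest member in every group, at 492 ± 47.3 CPM per kb in Ctrlm mice (SD, n = 6), followed by Sqstm1 at 132 ± 12.4 and Nbr1 at 42.9 ± 2.03. Map1lc3b, Atg5 and Map1lc3a came next in Ctrlm mice, at 17.9 ± 1.62, 16.3 ± 1.59 and 15.5 ± 4.38 CPM per kb, and their kidneys overlapped. Optn was at 5.59 ± 0.514, Usp30 at 4.22 ± 0.334, Atg7 at 2.28 ± 0.369 and Tfeb at 1.93 ± 0.248 CPM per kb. In this order Atg7 and Tfeb overlapped in Ctrlm, Ctrlf and cKOf mice and did not in cKOm mice, and Optn and Usp30 overlapped in both female groups. The order of the 10 members by mean level was the same in all 4 groups. Together with Gabarap and Gabarapl2, 5 ATG8 genes were measured, and Gabarapl1 made up 69.3% to 82.8% of their summed level per kb over the 24 kidneys. Map1lc3b made up 2.47% to 3.79% of it. Its annotated exons, 7517 bases, are the longest of the 5 genes, so its level per kb is low if the longest exons are little used. These shares hold for counted reads only, which leave out reads without a single place. Gabarap and Gabarapl2 were not checked for sequence shared with other genes.

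**Figure D1:**
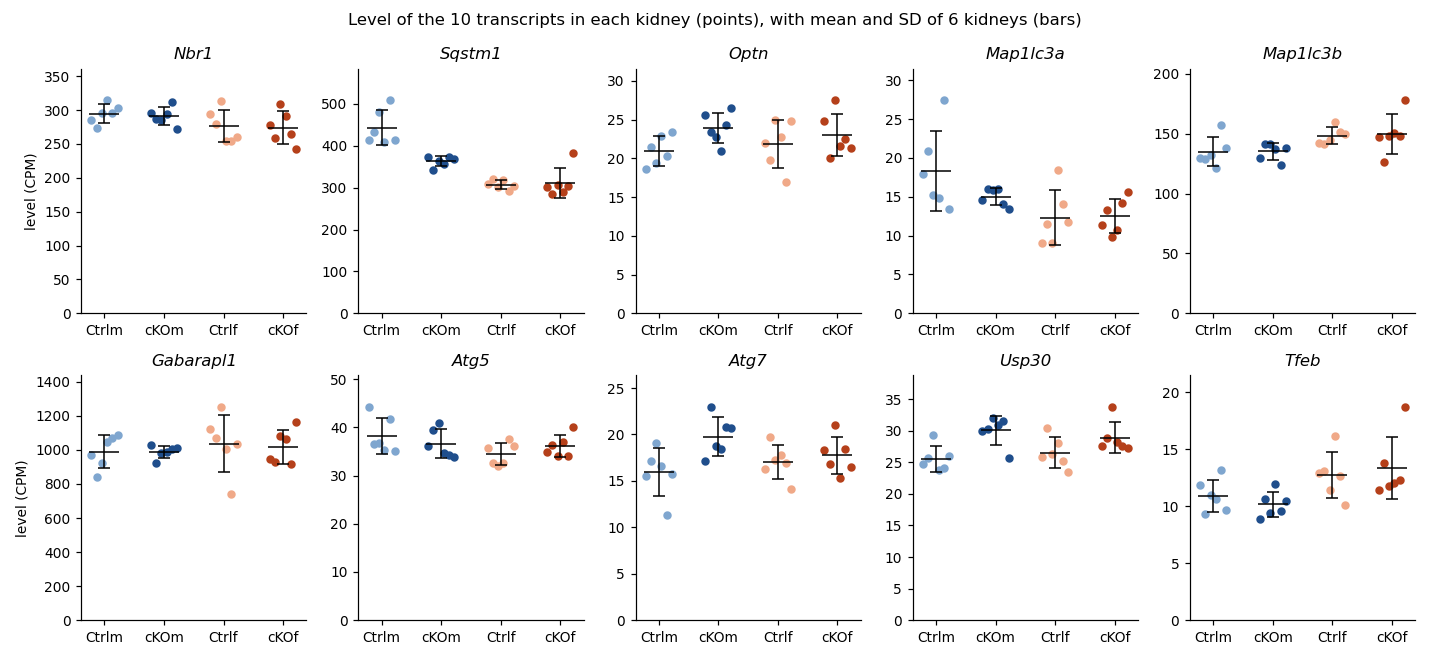
Level of each of the 10 transcripts in CPM (linear axis from 0) in the 6 kidneys of each group, with the group mean and SD as bars. Sqstm1 is at 408 to 508 CPM in Ctrlm and 342 to 374 in cKOm mice, without overlap, while the genotypes overlap within each sex for the other 9 transcripts.

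Among the cargo receptors, Nbr1 lies on chromosome 11 of GRCm38 from 101552149 to 101581951. In Ctrlm mice its lowest, median and highest levels were 274, 295 and 314 CPM, and in cKOm mice 272, 290.3 and 311. Ctrlf mice held 255, 269.8 and 313 CPM and cKOf mice 242, 271 and 309. The 4 groups covered nearly the same range. The log2 fold change was -0.02 in males (95% confidence interval -0.16 to 0.12, edgeR adjusted p = 0.942) and -0.01 in females (-0.15 to 0.13, adjusted p = 0.968). In this fit without covariates, the 95% intervals of Nbr1 stayed within 0.16 of no change on the log2 scale in each sex. With the share of reads outside exons as a covariate, the male value was -0.08 (edgeR adjusted p = 0.714), and its interval is not given here.

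Sqstm1 encodes the receptor p62, which also binds KEAP1 and so feeds into NRF2 signaling. It lies on chromosome 11 from 50199366 to 50210827. The lowest, median and highest levels were 408, 424 and 508 CPM in Ctrlm mice and 342, 366 and 374 in cKOm mice. Every cKOm kidney was under every Ctrlm kidney, as was the case for 3.69% of all tested genes in this direction (two-sided exact permutation test, p = 0.00216, which is the lowest that 6 kidneys against 6 can give). Ctrlm kidneys had a mean of 443 ± 41.5 CPM and cKOm kidneys one of 363 ± 12.0 (SD, n = 6). The male log2 fold change of Sqstm1 was -0.29 (standard error 0.07, 95% confidence interval -0.43 to -0.14, edgeR adjusted p = 0.0152), or a fold of 0.820. It was the 1 of 10 members called in males, where 9.05% of all tested genes were called and 4.9% were called lower.

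In females, Sqstm1 was at 292, 307 and 319.7 CPM in Ctrlf mice (lowest, median and highest) and at 284, 304 and 384 in cKOf mice. The groups overlapped, and the highest cKOf kidney, replicate 6, stood apart from the next at 306. The female log2 fold change was 0.02 (95% confidence interval -0.13 to 0.17, edgeR adjusted p = 0.941). The male change minus the female one was -0.31 (standard error 0.10, 95% confidence interval -0.52 to -0.10), which did not pass the threshold after adjustment (edgeR test of the interaction, adjusted p = 0.128). A difference of the Sqstm1 response between the sexes was therefore not shown.

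The male call of Sqstm1 held without each kidney in turn (adjusted p between 0.0027 and 0.0454) and was lost with either of 2 covariates. The share of reads outside annotated exons, among reads on genes or outside exons, was 6.56% to 8.39% in Ctrlm and 8.39% to 9.35% in cKOm mice, with no overlap before rounding, and the means differed by 1.20 percentage points (two-sided exact permutation test, p = 0.00216). With this share as a covariate, chosen after the data were seen, the log2 fold change of Sqstm1 was -0.17 (edgeR adjusted p = 0.224). As the share did not overlap between the male genotypes, this fit cannot tell share and genotype well apart. Without the 4 kidneys under 7% the log2 fold change of Sqstm1 was -0.28 (edgeR adjusted p = 0.00299). The summed level of 8 hepatocyte markers was 96.3 to 907 CPM in Ctrlm and 132 to 492 in cKOm mice, and once its score was a covariate Sqstm1 had a log2 fold change of -0.26 (edgeR adjusted p = 0.0995). Of those 8 markers, 2 were called lower and 1 higher in cKOm mice, and none was at 0 in all kidneys. The part of either measure in the Sqstm1 result was not tested beyond these fits. The Sqstm1 counts were also set against those of Nbr1 within each kidney, which needs no scaling. Their ratio had a mean of 1.51 ± 0.162 in Ctrlm and 1.25 ± 0.0625 in cKOm kidneys (SD, n = 6). It differed in a two-sided exact permutation test (p = 0.00433), though the groups overlapped (lowest Ctrlm 1.30, highest cKOm 1.36). This ratio rests on the same Sqstm1 counts and adjusts for neither covariate, so it is not a separate test of the call.

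**Figure D2:**
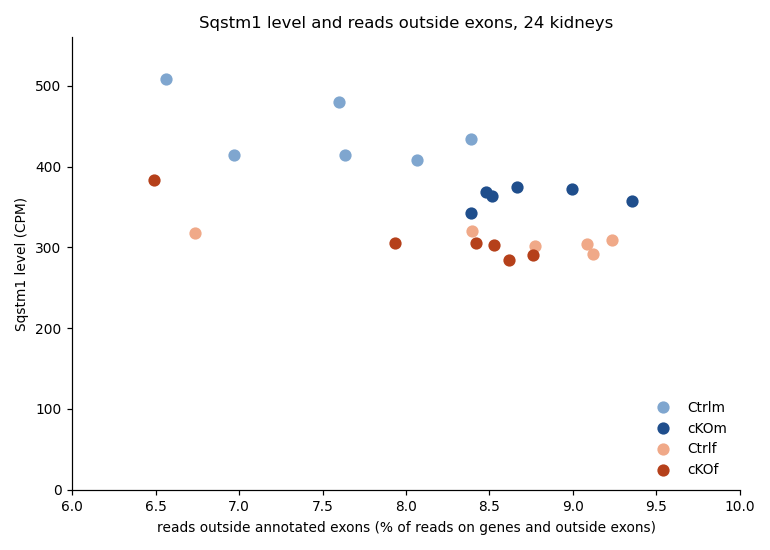
Sqstm1 level in CPM (vertical, linear axis from 0) against the share of reads outside annotated exons in percent (horizontal) in the 24 kidneys, colored by group. The 6 Ctrlm kidneys are the highest points, at 408 to 508 CPM. Of the other groups, the cKOf kidney with the lowest share, 6.49%, is the highest at 384 CPM.

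Optn encodes optineurin, a receptor of mitophagy and of bacteria and aggregates, and lies on chromosome 2 from 5020642 to 5064051. Its lowest, median and highest levels were 18.6, 20.8 and 23.4 CPM in Ctrlm and 20.97, 23.8 and 26.5 in cKOm mice. In females they were 16.9, 22.4 and 24.9 CPM in Ctrlf and 20.1, 22.04 and 27.5 in cKOf mice. Genotypes overlapped in both sexes, although 3 of 6 cKOm kidneys were above every Ctrlm kidney. The log2 fold change was 0.19 in males (95% confidence interval -0.01 to 0.39, edgeR adjusted p = 0.365) and 0.07 in females (-0.13 to 0.27, adjusted p = 0.800).

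Among the ATG8 proteins, Map1lc3b encodes LC3B, the form most used as a marker of autophagosomes, and lies on chromosome 8 from 121590361 to 121598760. It was at 122, 131 and 157 CPM in Ctrlm mice (lowest, median and highest) and at 124, 138 and 142 in cKOm mice. In females it was at 142, 148 and 160.0 CPM in Ctrlf and at 126, 148 and 178 in cKOf mice. The male genotypes had nearly equal means, 135 ± 12.2 and 135 ± 7.12 CPM (SD, n = 6), and the log2 fold change was 0.01 in each sex (95% confidence intervals -0.14 to 0.16 and -0.14 to 0.16, edgeR adjusted p = 0.983 and 0.968).

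Map1lc3a, which encodes LC3A and lies on chromosome 2 from 155276297 to 155278073, had the largest coefficient of variation of the 10 members in both control groups and not in the cKO groups. In Ctrlm mice its lowest, median and highest levels were 13.5, 16.5 and 27.4 CPM, a coefficient of variation of 28.3%, and in cKOm mice 13.5, 15.2 and 16.03 CPM, one of 7.32%. All 6 cKOm kidneys lay within the Ctrlm range, and the highest Ctrlm kidney was replicate 5. Female levels were 9.003, 11.6 and 18.4 CPM in Ctrlf and 9.86, 12.3 and 15.6 in cKOf mice. The log2 fold change of -0.29 in males was as large as that of Sqstm1, but its 95% confidence interval ran from -0.63 to 0.06 (edgeR adjusted p = 0.434). It ranged from -0.39 to -0.14 without each kidney in turn, the latter without Ctrlm replicate 5, and was -0.13 without the 4 kidneys under 7% of reads outside exons and -0.0079 with that share as a covariate. In females it was 0.02 (-0.32 to 0.37, adjusted p = 0.975).

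Gabarapl1, the third ATG8 member, lies on chromosome 6 from 129533160 to 129542346. Its lowest, median and highest levels were 843, 1009 and 1085 CPM in Ctrlm mice and 926, 996 and 1029 in cKOm mice. The means were 989.7 ± 95.3 and 990.0 ± 36.1 CPM (SD, n = 6), and the log2 fold change was 0.00 (95% confidence interval -0.19 to 0.19, edgeR adjusted p = 1.00). In females the levels were 743, 1052 and 1250.1 CPM in Ctrlf and 919, 1006 and 1164 in cKOf mice, with a log2 fold change of -0.03 (-0.22 to 0.16, adjusted p = 0.934). The most abundant member thus had equal means in males, with cKOm kidneys inside the range of Ctrlm kidneys.

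Atg5 and Atg7 encode parts of the machinery that attaches ATG8 proteins to lipid, ATG7 as the activating enzyme and ATG5 as part of the ligase complex. Atg5 lies on chromosome 10 from 44268358 to 44364291. Its levels were 35.2, 36.7 and 44.1 CPM in Ctrlm (lowest, median and highest), 33.9, 35.4 and 41.0 in cKOm, 32.0, 34.2 and 37.6 in Ctrlf and 34.0, 35.6 and 40.0 in cKOf mice. The log2 fold change was -0.07 in males (95% confidence interval -0.22 to 0.09, edgeR adjusted p = 0.755) and 0.07 in females (-0.09 to 0.22, adjusted p = 0.758). The groups overlapped throughout.

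Atg7 lies on chromosome 6 from 114643097 to 114860614. It was at 11.4, 16.2 and 19.1 CPM in Ctrlm (lowest, median and highest) and at 17.2, 19.7 and 22.9 in cKOm mice, where 3 of 6 kidneys were above every Ctrlm kidney. The male log2 fold change was 0.31 (standard error 0.11, 95% confidence interval 0.09 to 0.53), with an unadjusted edgeR p of 0.0074 and an adjusted p of 0.104. Without the 4 kidneys under 7% of reads outside exons the male value was 0.18 (edgeR adjusted p = 0.412). In females Atg7 was at 14.1, 17.1 and 19.7 CPM in Ctrlf and at 15.3, 17.6 and 21.1 in cKOf mice. The female log2 fold change was 0.06 (-0.16 to 0.29, adjusted p = 0.850). The male change exceeded the female one by 0.25 (standard error 0.15, edgeR test of the interaction, adjusted p = 0.507).

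Usp30, on chromosome 5 from 114065461 to 114124720, encodes the deubiquitinase that opposes pexophagy and mitophagy. Its lowest, median and highest levels were 23.7, 25.2 and 29.3 CPM in Ctrlm and 25.6, 30.6 and 32.1 in cKOm mice. In cKOm mice 5 of 6 kidneys were above every Ctrlm kidney, and replicate 6 was the exception. The male log2 fold change was 0.23 (standard error 0.08, 95% confidence interval 0.07 to 0.40), with an unadjusted edgeR p of 0.0067 and an adjusted p of 0.0965. Without cKOm replicate 6 it was 0.28 and passed the threshold (edgeR adjusted p = 0.0477). Without the 4 kidneys under 7% of reads outside exons it was 0.17 (edgeR adjusted p = 0.319). Under none of the 11 alternatives did it pass (adjusted p from 0.0542 to 0.319). In females the levels were 23.5, 26.1 and 30.4 CPM in Ctrlf and 27.3, 28.0 and 33.7 in cKOf mice, and the log2 fold change was 0.12 (-0.04 to 0.28, adjusted p = 0.4999).

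Tfeb, on chromosome 17 from 47737030 to 47792419, was the member with the lowest level per kb. In CPM it was at 9.33, 10.8 and 13.1 CPM in Ctrlm (lowest, median and highest), 8.92, 10.03 and 12.0 in cKOm, 10.1, 12.8 and 16.2 in Ctrlf and 11.4, 12.2 and 18.7 in cKOf mice. Genotypes overlapped in each sex. The log2 fold change was -0.10 in males (95% confidence interval -0.36 to 0.16, edgeR adjusted p = 0.781) and 0.07 in females (-0.19 to 0.32, adjusted p = 0.870). With the share of reads outside exons as a covariate, the male value became 0.15 (edgeR adjusted p = 0.626), so its sign depended on that choice.

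**Figure D3:**
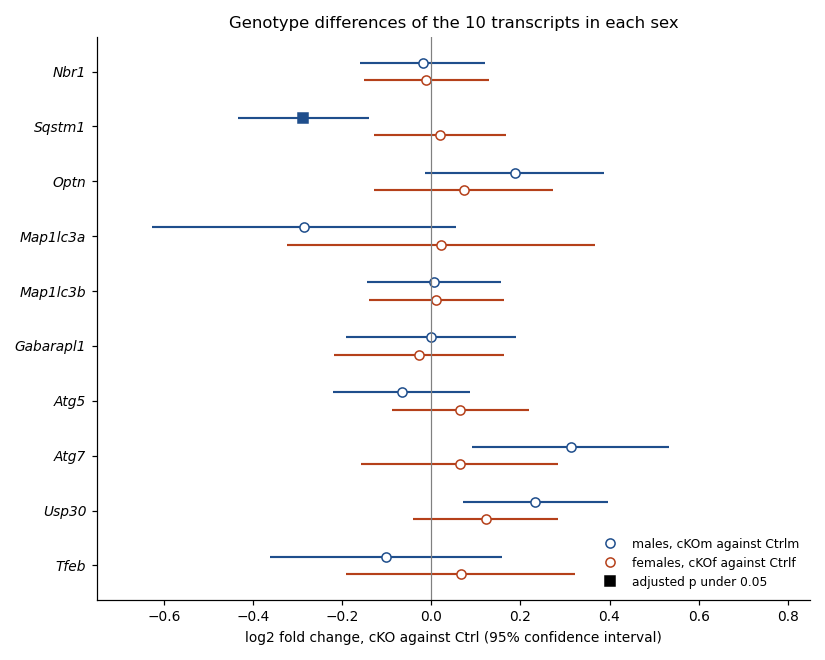
Log2 fold change of each of the 10 transcripts between cKO and Ctrl mice with its 95% confidence interval, for males and females. The filled square marks the adjusted p under 0.05, which Sqstm1 in males reached at -0.29, while the open circles range from -0.29 to 0.31 in males and from -0.03 to 0.12 in females.

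Counted over the members, 3 of 10 had an unadjusted p under 0.05 in males (Sqstm1, Atg7 and Usp30), where 25.1% of all tested genes had one, and 1 of 10 had an adjusted p under 0.05. In females, where 0.851% of all tested genes were called, edgeR called 0 of 10 after adjustment and found 0 of 10 at an unadjusted p under 0.05 (6.73% of all tested genes), and DESeq2 and limma-voom also called 0. For the interaction, edgeR called 0 of 10 members, against 2.31% of all tested genes, and 1 of 10 had an unadjusted p under 0.05, against 13.4% of all tested genes. Of the 20 exact permutation tests on single members, 4 gave an unadjusted p under 0.05, all in males: Sqstm1, Usp30 (p = 0.00866), Atg7 (p = 0.0152) and Optn (p = 0.0325). After Benjamini-Hochberg adjustment over these 20 permutation tests, Sqstm1 was at 0.0433, Usp30 at 0.0866, Atg7 at 0.101 and Optn at 0.162. The share of all tested genes with such a permutation p is not given here. The median log2 fold change of the members was -0.01 in males and 0.04 in females, against 0.01 and 0.00 over all tested genes.

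The control groups differed by sex in 2 of the 10 members, and 16.8% of all tested genes were called between Ctrlm and Ctrlf mice, and 8.71% of all tested genes were called higher in Ctrlm mice, the direction of both of these members. Sqstm1 was at 443 ± 41.5 CPM in Ctrlm and 308 ± 10.5 in Ctrlf mice (SD, n = 6), a log2 difference of 0.53 in males against females (SE 0.07, edgeR adjusted p = 3.6e-06), with every Ctrlm kidney above every Ctrlf kidney, as for 3.95% of all tested genes. The 6 Ctrlm kidneys serve in this comparison and in that of the male genotypes. The cKOm kidneys, at 342 to 374 CPM, lay between the Ctrlm and the Ctrlf kidneys and overlapped with neither. Map1lc3a had 18.3 ± 5.17 CPM in Ctrlm and 12.3 ± 3.54 in Ctrlf mice, a log2 difference of 0.57 (SE 0.17, edgeR adjusted p = 0.0174) between groups that overlapped. This call was lost without Ctrlm replicate 5 (edgeR adjusted p = 0.0742), with the hepatocyte score (adjusted p = 0.200) and with the share of reads outside exons as covariates (adjusted p = 0.131). For the other 8 members the log2 difference ran from -0.22 for Tfeb to 0.15 for Atg5, and none passed the threshold.

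Single kidneys stood at the top of their group for several members. Within cKOf mice, replicate 6 was the highest kidney for 6 of 10 members, among them Sqstm1, Map1lc3a, Map1lc3b and Tfeb, and the lowest for Nbr1 and Usp30. Its share of reads outside exons, 6.49%, was the lowest of the 24 kidneys. Within Ctrlm mice, replicate 5 was the highest for 4 of 10 members and had a share of 6.56%. Its part in these levels was not tested.

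Some of the members share sequence with overlapping genes, which bears on their counts. Of the 50-base stretches in Sqstm1 transcripts, 15.5% also occur in exons of Mrnip on the opposite strand, and of those in Gabarapl1 transcripts 23.1% occur in 1700101I11Rik, also on the opposite strand. The mean counts per kidney were 7869 for Sqstm1 against 258 for Mrnip and 22162 for Gabarapl1 against 55.3 for 1700101I11Rik. For Map1lc3b the share was 6.01%, mostly with the processed copies Gm6055, Gm12727 and Gm6054, and for Usp30 it was 6.52% with Alkbh2 and Svop. The library kit keeps strand, and the strand setting of the counting is not given in the sources used here, so reads in the overlaps could have been dropped or split. Nbr1, Map1lc3a, Atg5, Atg7 and Tfeb shared no such stretch.

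The other genes of the pathway were taken from 10 lists with 120 genes, all of them tested. In males 13 of the 120 were called, 3 higher and 10 lower in cKOm mice, which is 10.8% against 9.05% of all tested genes (4.14% higher and 4.9% lower). In females edgeR called 0 of 120, against 0.851% of all tested genes, and 8 of 120 had an unadjusted p under 0.05, where 6.73% of all tested genes had one. DESeq2 called 1 of them in females, Gclc, with a log2 fold change of -0.45 (DESeq2 adjusted p = 0.0430), and limma-voom 0. Gclc, a subunit of the enzyme that starts glutathione synthesis, is named after its values were seen, and its edgeR adjusted p in females was 0.0978. The autophagy initiation list (0 of 5), the other ATG8 proteins and conjugation factors (0 of 11), the other cargo receptors (0 of 17) and the factors of autophagosome fusion (0 of 12) held no gene called by edgeR in males, where 0 of 5, 3 of 11, 3 of 17 and 3 of 12 had an unadjusted p under 0.05, against 25.1% of all tested genes, and DESeq2 and limma-voom called 0 of them as well. The median male log2 fold change over the 120 genes was 0.015, against 0.0148 over all tested genes.

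**Figure D4:**
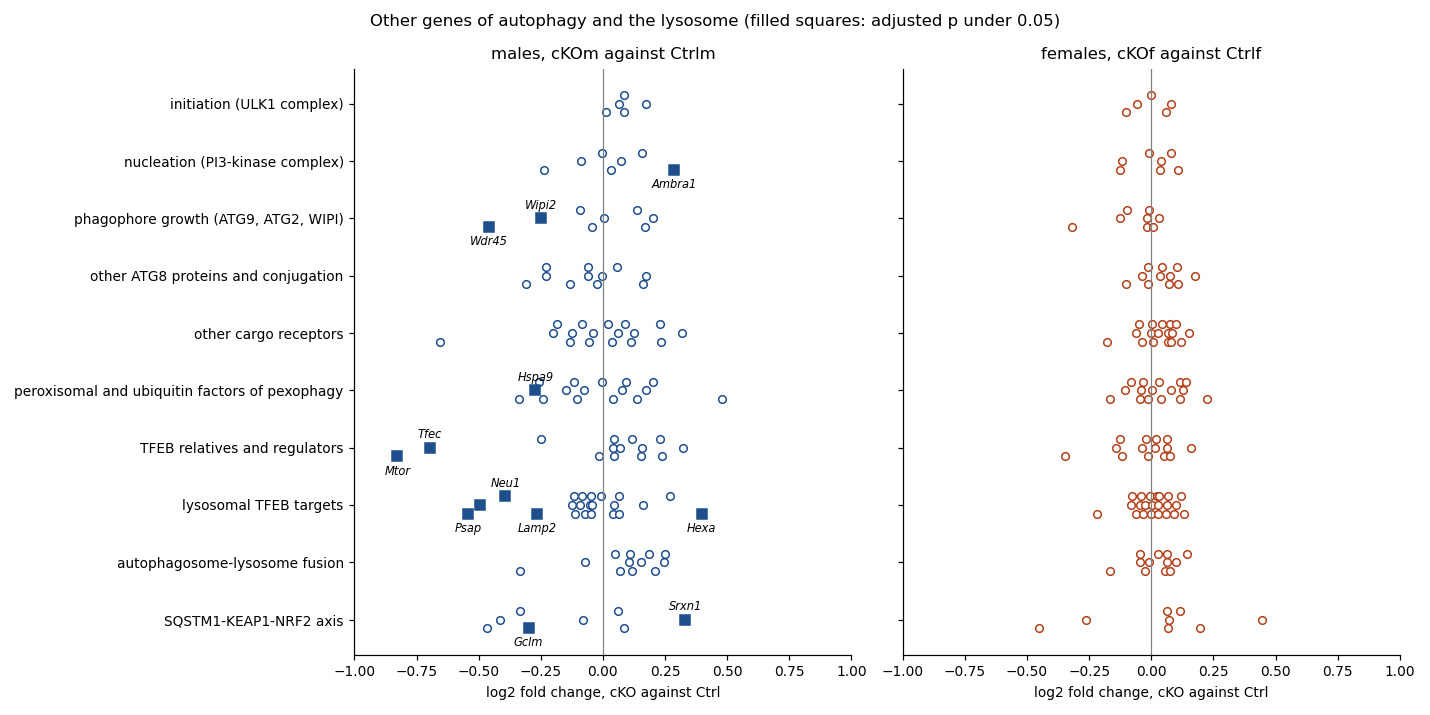
Log2 fold change between cKO and Ctrl mice of 120 other genes of autophagy and the lysosome, by list, in males and females. Filled squares, most of them with names, mark an adjusted p under 0.05, of which there are 13 in males, from -0.83 for Mtor to 0.40 for Hexa, and 0 in females.

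The lists named from here on each held a called gene in males. Among 14 relatives and regulators of TFEB, 2 fell in cKOm mice, where 4.9% of all tested genes were called lower. Mtor encodes the kinase that holds TFEB in the cytosol. Its lowest, median and highest levels were 208, 239 and 323 CPM in Ctrlm mice and 127, 135 and 155 in cKOm mice, without overlap. In females they were 135, 161 and 175 CPM in Ctrlf and 123, 144 and 173 in cKOf mice, which overlapped. The log2 fold change was -0.83 in males (SE 0.10, edgeR adjusted p = 1.6e-06) and -0.12 in females (0.10, adjusted p = 0.605). The gap of -0.70 between them passed the edgeR test of the interaction (adjusted p = 0.00311), in which sex and the extent of the deletion cannot be told apart. Mtor was also higher in Ctrlm than in Ctrlf mice, by 0.62 on the log2 scale (edgeR adjusted p = 2.5e-05). The same Ctrlm kidneys enter all of these comparisons but the female one. Tfec, a relative of TFEB, was at 15.2, 16.1 and 22.5 CPM in Ctrlm and 10.04, 10.2 and 12.7 in cKOm mice, again without overlap. Its log2 fold change was -0.70 in males (SE 0.11, edgeR adjusted p = 1.2e-04) and 0.05 in females (0.11, adjusted p = 0.890), and the difference of -0.75 passed the test of the interaction (adjusted p = 0.00575).

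Of 22 lysosomal genes reported as TFEB targets, 5 (22.7%) were called in males, 4 lower and 1 higher, against 9.05% of all tested genes. The median log2 fold change of the list was -0.05. Psap encodes prosaposin, the precursor of activators of sphingolipid breakdown, and fell from 828, 1002 and 1095 CPM in Ctrlm mice (lowest, median and highest) to 618, 671 and 742 in cKOm mice. Its log2 fold change was -0.54 in males (SE 0.08, edgeR adjusted p = 8.1e-05) and -0.08 in females (0.08, adjusted p = 0.723), and the difference of -0.46 passed the test of the interaction (adjusted p = 0.0323). Hexa, a lysosomal hydrolase, rose from 62.1 ± 8.57 to 81.8 ± 11.3 CPM in males (SD, n = 6), or by 0.40 on the log2 scale (edgeR adjusted p = 0.0174). Neu1, a sialidase, fell from 622 ± 78.1 to 474 ± 23.6 CPM (SD, n = 6), or by 0.39 on that scale (edgeR adjusted p = 0.0212). Lamp2, a lysosomal membrane protein named here after its values were seen, had a log2 fold change of -0.26 (edgeR adjusted p = 0.0273).

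Among 8 genes that extend the phagophore, 2 fell in cKOm mice, where 4.9% of all tested genes were called lower. Wipi2, which binds the lipid made by the PI3-kinase complex and recruits the ATG8 ligase, had a log2 fold change of -0.25, with Ctrlm kidneys at 95.7 ± 5.09 CPM and cKOm kidneys at 80.6 ± 2.66 without overlap (SD, n = 6; edgeR adjusted p = 0.0302). Wdr45, a relative of Wipi2, had one of -0.46, with 17.99 ± 5.07 and 13.1 ± 1.09 CPM (SD, n = 6; edgeR adjusted p = 0.0258). Its highest Ctrlm kidney was replicate 5 at 27.8 CPM, and without it the value was -0.29 (edgeR adjusted p = 0.0761). Ambra1, which regulates the PI3-kinase complex, was called higher in males, with a log2 fold change of 0.29 (edgeR adjusted p = 0.0192). It was 1 of 7 genes of that list, against 4.14% of all tested genes called higher.

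The other 3 called genes came from 2 lists, where 9.05% of all tested genes were called in males. Srxn1 and Gclm are NRF2 targets, 2 of the 8 genes of the SQSTM1, KEAP1 and NRF2 list, and moved in opposite directions in cKOm mice. Srxn1, which encodes sulfiredoxin, rose by 0.33 on the log2 scale, from 53.5 ± 4.29 to 67.3 ± 4.97 CPM without overlap (SD, n = 6; edgeR adjusted p = 0.00866). Gclm, a subunit of the enzyme that starts glutathione synthesis, fell by 0.30 on that scale, from 421 ± 24.4 to 342 ± 29.9 CPM (SD, n = 6; edgeR adjusted p = 0.0181). Of 16 peroxisomal and ubiquitin factors of pexophagy, 1 was called, the chaperone gene Hspa9, with a log2 fold change of -0.27 (edgeR adjusted p = 0.0477). None of these 3 genes passed the threshold in females, and none passed the test of the interaction.

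These calls held to different degrees. With the hepatocyte score as a covariate, 5 of the 120 genes were called in males, 1 higher and 4 lower. Mtor, Tfec and Psap were among the lower ones and Srxn1 was the higher one. Mtor, Tfec and Psap were called in males under every alternative and without any one kidney. Ambra1, Wdr45, Wipi2, Hspa9, Hexa, Neu1, Srxn1, Gclm and Lamp2 were each lost under at least 1 of these. Many of these genes also differed between Ctrlm and Ctrlf mice, as did 16.8% of all tested genes. Called higher in Ctrlm mice were Mtor (log2 difference 0.62), Neu1 (0.61), Gclm (0.42), Psap (0.39), Tfec (0.36) and Wipi2 (0.31). Called lower were Ambra1 (-0.23) and Hexa (-0.30), and Wdr45, Hspa9, Srxn1 and Lamp2 were not called. The same Ctrlm kidneys serve in the male genotype comparison.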

How the data were processed

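RNA of whole kidneys from 24 mice was sequenced, and the authors deposited 1 file per kidney with raw counts per gene, made per the submitters' notes with cutadapt 1.8, STAR 2.5.3a and HTSeq 0.9.1 on GRCm38. Each file held 55335 genes and 5 closing lines that name no gene and were left out. GENCODE M21 (GRCm38) gave names and positions for 55154 genes. Groups were taken from the labels. Testing was limited to genes that reached 1 CPM in any kidney and used edgeR 4.0.16 (R 4.3.3; TMM, quasi-likelihood, 1 model of 4 groups). Benjamini-Hochberg adjustment covered both genotype comparisons jointly, while the interaction and the sex comparison were each adjusted across genes (threshold 0.05). Single genes were compared by exact permutation over 924 arrangements. Kidneys of a group differed beyond sampling noise (chi-square per degree of freedom 9.68 to 96.7 over 60 pairs). The procedure was tested on simulated counts with log2 changes of 1. These are larger than any member change here, so that test does not show how changes of member size are called.

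Named are the 10 members, Pex5 and, from each pathway list, called genes, at most 4 by adjusted p per list and sex. The members and lists, 11 cell type marker lists among them, were chosen with earlier results of these data known. The alternatives were DESeq2 1.42.0, limma-voom (limma 3.58.1), RLE normalization, 2 other filters, separate fits or separate adjustment of the sexes, a replicate block, a hepatocyte score and the share of reads outside exons as covariates, the removal of 4 kidneys, and each kidney left out in turn. The share of reads outside exons and the removal of 4 kidneys were chosen after seeing the data. The metabolome was not analysed here, and the values of 1 pathway gene are not reported here.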

Additional observations from a re-analysis of the deposited data

Results flagged for a closer look

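In groups of 6 kidneys, a kidney was singled out if its gap to the nearest other exceeded 0.625 of the range of its group (Dixon's test), which chance does in about 1 of 20 groups. Of 92 groups, 7 held such a kidney. Sqstm1 was at 384 CPM in cKOf replicate 6 against 306 in the next kidney. Tfeb was at 18.7 CPM in the same kidney against 13.8 in the next. Usp30 was at 25.6 CPM in cKOm replicate 6, under the 30.0 of the next kidney, and at 33.7 in cKOf replicate 3, above the 28.9 of the next. Of the other genes of the pathway, Ambra1 was at 59.9 CPM in Ctrlf replicate 1, Wdr45 at 27.8 in Ctrlm replicate 5 and Neu1 at 343 in cKOf replicate 2, the last one low. The share of reads outside exons was 6.49% in cKOf replicate 6 and 6.56% in Ctrlm replicate 5, the lowest 2 of the 24 kidneys, and its part in these values was not tested.

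By edgeR's test of the interaction, the genotype effect differed between the sexes for 3 of the 120 genes of the pathway lists. This is 2.5%, against 2.31% of all tested genes. Sex and the extent of the deletion cannot be told apart in this test. The male change minus the female one was -0.70 for Mtor (adjusted p = 0.00311), -0.75 for Tfec (adjusted p = 0.00575) and -0.46 for Psap (adjusted p = 0.0323). These 3 genes were also called higher in Ctrlm than in Ctrlf mice, as were 8.71% of all tested genes, and the same Ctrlm kidneys enter the interaction. No member passed this test.

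The share of reads outside exons, a measure outside the gene counts, was 1.20 percentage points higher in cKOm than in Ctrlm mice (two-sided exact permutation test, p = 0.00216). In females it was 8.13% ± 0.849 in cKOf and 8.56% ± 0.944 in Ctrlf mice (SD, n = 6; p = 0.429 in the same exact test).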

How the results depend on the processing

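Sqstm1 in males kept its direction under the 11 alternatives and its call under 9 (adjusted p from 0.00122 to 0.224). Of the members, 0 were called in males with the hepatocyte score and 0 with the share of reads outside exons as a covariate, and 1 to 2 without each kidney in turn (2 without cKOm replicate 6, which added Usp30). In females and for the interaction, 0 members were called under each alternative and 0 to 0 without each kidney. Between Ctrlm and Ctrlf mice 1 member was called with the hepatocyte score and 1 to 2 without each kidney. With the share of reads outside exons, Map1lc3b (-0.25, edgeR adjusted p = 0.0116) and Tfeb (-0.42, adjusted p = 0.00761) were called lower in Ctrlm than in Ctrlf mice. Of the 20 exact permutation tests, 3 to 5 gave an unadjusted p under 0.05 without each kidney. Of the 120 pathway genes, 5 were called in males with the hepatocyte score and 8 to 15 without each kidney (8 without Ctrlm replicate 3 or cKOm replicate 6). In females 1 was called with DESeq2 and 1 with the share of reads outside exons, and 0 to 1 without each kidney (1 without Ctrlf replicate 1), each time Gclc. The cause of these changes was not tested.

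Male calls of pathway genes were lost without single kidneys, with the highest edgeR adjusted p in parentheses: Srxn1 without Ctrlm 6 (0.0519), Gclm without cKOm 4 (0.0514), Neu1 without Ctrlm 3 or cKOm 6 (0.0690), Hexa without Ctrlm 3, cKOm 5 or cKOm 6 (0.0570), Ambra1 without Ctrlm 1, Ctrlm 4 or cKOm 5 (0.0598), Wdr45 without Ctrlm 5 or cKOm 2, 3 or 6 (0.0761), Lamp2 without 6 kidneys (0.0720), Wipi2 without 8 (0.0708) and Hspa9 without 17 (0.140).

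Some log2 values of members that passed the threshold in neither fit changed sign. With the share of reads outside exons they were 0.00976 for Nbr1, -0.0259 for Sqstm1, -0.0577 for Map1lc3a, -0.0368 for Map1lc3b and -0.0252 for Tfeb in females, 0.147 for Tfeb in males, and 0.0498 for Map1lc3a, 0.167 for Map1lc3b and 0.172 for Tfeb in the interaction. Without the 4 kidneys under 7% they were -0.0472 for Sqstm1 and -0.0312 for Map1lc3b in females, -5.10e-04 for Gabarapl1 in males, 0.0607 for Map1lc3b in the interaction, and 0.0220 for Optn, 0.0388 for Atg7 and 0.00816 for Usp30 between the controls. With the hepatocyte score they were 0.0643 for Optn between the controls and, in males, -0.00697 for Map1lc3b and -0.0200 for Gabarapl1. Map1lc3b and Gabarapl1 in males were at -0.0164 and -0.0213 with DESeq2, -0.0165 and -0.0214 with RLE scaling, -0.0216 and -0.0259 with no filter on low counts, -0.0173 and -0.0219 with 1 CPM asked of 6 kidneys, and -0.0158 and -0.0208 with the sexes fitted apart. Map1lc3b in the interaction was at 0.00376 with limma-voom. Without each kidney in turn, the ranges that crossed 0 were, in males, -0.0404 to 1.77e-04 for Nbr1, -0.0214 to 0.0549 for Map1lc3b and -0.0417 to 0.0240 for Gabarapl1. In females they were -0.0485 to 0.0281 for Nbr1, -0.0477 to 0.0460 for Sqstm1, -0.0534 to 0.164 for Map1lc3a, -0.0437 to 0.0559 for Map1lc3b, -0.108 to 0.0324 for Gabarapl1 and -0.0532 to 0.140 for Tfeb. For the interaction they were -0.0472 to 0.0294 for Nbr1, -0.0497 to 0.0499 for Map1lc3b and -0.0320 to 0.0898 for Gabarapl1.

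Over all tested genes, male calls numbered 1456, 893 with the hepatocyte score and 1080 with the share of reads outside exons. Female calls numbered 137, and 43 with the sexes adjusted apart. Interaction calls numbered 372, 574 with DESeq2 and 183 with the share of reads outside exons, and calls between the controls 2707, and 1584 with the hepatocyte score. With no filter on low counts, male calls were 443 higher and 797 lower, against 667 and 789.

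Same-numbered kidneys of different groups come from different mice. Their deviations from the group means correlated at -0.199 to 0.120, and those of other-numbered kidneys at -0.310 to 0.357. Such values cannot show whether same-numbered kidneys share a litter or a batch. With the replicate number as a block, Sqstm1 in males was at -0.29 (edgeR adjusted p = 0.0332), 1 member was called in males, Map1lc3b in the interaction was at 2.43e-04, and calls over all genes numbered 1268 in males and 110 in females. With 6 mice a group, the 95% intervals of the members reached 0.14 to 0.35 on either side of a log2 fold change, and the lowest member count was 188.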

Other observations

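Markers of 11 cell types were measured beside the members, and the part of these cell types in the members' levels was not tested. In males, 4 of 7 proximal tubule markers were called lower and 0 higher, with a median log2 fold change of -0.33, and in females 0 of 7 were called. Of 5 markers of the thick ascending limb and distal tubule, 1 was called higher in males. Of 6 collecting duct markers, 1 was called higher and 1 lower in males and 1 lower in females. The 4 macrophage markers had a median log2 fold change of -0.54 in males, with 1 called lower, and their summed level was 83.4 to 124 CPM in Ctrlm and 63.9 to 90.4 in cKOm mice. Of 8 hepatocyte markers, 1 was called higher and 2 lower in males, with a median of -1.24, and 0 were called in females, where the summed level stayed between 61.5 and 134 CPM in both groups. None of the markers of podocytes (3), endothelium (4), fibroblasts (4), adipocytes (3), skeletal muscle (3) and lymphocytes (3, of which 1 was tested) was called in either sex. Skeletal muscle markers summed to 0 to 434 CPM in Ctrlf mice, with a median of 4.56.

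The share of reads that could not be assigned to a single place, among these and the reads on genes, was 37.3% in cKOm replicate 4 and between 29.1% and 32.2% in the other kidneys.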
